A study of Mus musculus with 8 samples.

Results

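Mural cells, the pericytes and vascular smooth muscle cells that wrap small vessels, were picked out of the periosteum of mice by their transcript counts, and 95 of 12253 kept cells qualified (0.775%, exact 95% interval 0.628 to 0.947). Barcodes were kept if over 500 but under 8000 genes were detected in them and mitochondrial transcripts made up less than 20% of the total. It was taken as a mural cell when it held at least 5 Rgs5 transcripts, or at least 2 Myh11 together with at least 5 Acta2 transcripts. It also had to hold at least 1 transcript of Notch3, Pdgfrb or Mcam, fewer than 20 of the osteoblast genes Bglap, Bglap2 and Ibsp together, and none of the endothelial gene Cdh5. These 10 genes therefore describe how the cells were found. Where the cells are split below by which of them they met, that split is a description as well.

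All mice were C57BL/6J males, with no other allele named, that were 16 weeks old when the left femurs and tibias were digested with collagenase and dispase. From 4 weeks of age they had eaten, for 12 weeks, either a normal diet (ND) or one rich in fat (HFD), in which fat supplied 60% of calories. Transcripts were counted as unique molecular identifiers (UMIs), tags that mark each captured RNA molecule, by droplet-based sequencing of the 3′ ends of transcripts. The sample labels list 4 mice per diet, yet each diet came as 1 pooled matrix in which no barcode is tied to a mouse. There were thus no replicates, no test between diets was possible, and diet, library and mouse cannot be told apart. Intervals are exact 95% intervals and cover counting error only.

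The ND library held 48558889 UMIs in 6314 barcodes and the HFD library 49940976 in 6636. Of the kept cells, 34 of 6029 in ND (0.564%, 0.391 to 0.787) and 61 of 6224 in HFD (0.980%, 0.750 to 1.26) were mural cells. They carried a median of 8428.5 UMIs in ND (2564 to 49213) and 8380 in HFD (1604 to 35767), and a median of 2591 and 2559 genes. The 2 libraries shared 15 barcodes, of which none was a mural cell. For comparison, 231 endothelial cells (77 ND and 154 HFD, chosen by Cdh5 and Pecam1), 651 fibroblasts (267 and 384, by Pdgfra and Dcn) and 2882 B cells (1474 and 1408, by Cd79a and Cd79b) were taken from the same libraries. Mural and endothelial cells and fibroblasts were all more numerous in the HFD library, and B cells were not. How far the digestion set these numbers was not tested.

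Mural cells sit in the basement membrane of vessels, outside the endothelium. Smooth muscle cells of arterioles carry bundles of smooth muscle actin and myosin and set vessel width, while pericytes of capillaries hold few contractile filaments and carry an ATP-sensitive potassium channel built from the products of Kcnj8 and Abcc9. Endothelial PDGF-B attracts mural cells through its receptor PDGFRB, and NOTCH3, bound by Jagged 1, maintains the smooth muscle state. In bone, perivascular cells are also known as a source of the blood cell factors CXCL12 and stem cell factor.

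The cells entered mainly through the contractile genes. The Myh11 and Acta2 term took in 87 of 95 cells (91.6%, 84.1 to 96.3), 31 of 34 in ND and 56 of 61 in HFD. Of these, 24 cells (7 ND and 17 HFD) also reached 5 Rgs5 transcripts and 63 (24 and 39) did not. Only 8 cells (3 and 5) entered through Rgs5 without the contractile term. Close to the thresholds, 2 ND and 10 HFD members held 5 to 9 Rgs5 transcripts, of which 1 in each library lacked the contractile term. Among cells taken in by the contractile term only, 1 HFD and 0 ND cells held 2 to 4 Myh11 transcripts, and 1 ND cell with both terms held 4. Just outside, 2 HFD cells had 3 or 4 Rgs5 transcripts and 1 HFD cell narrowly missed the Myh11 and Acta2 term, against 0 ND cells in either place.

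**Figure D1:**
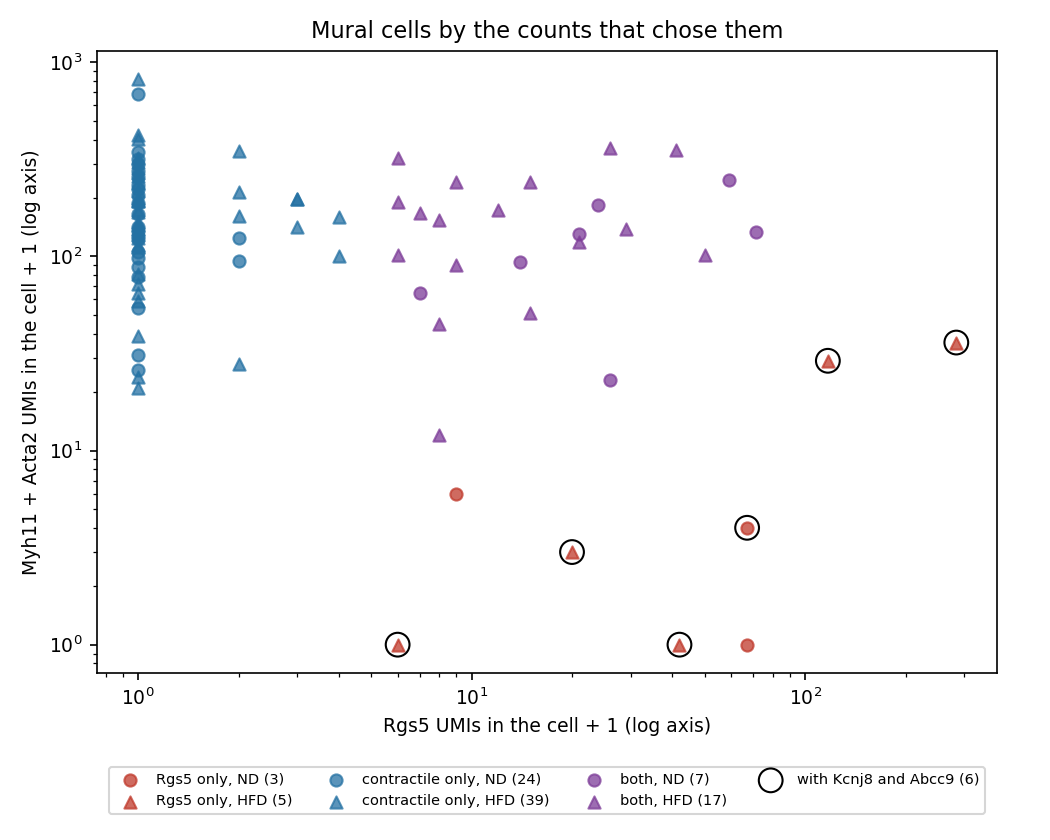
Rgs5 transcripts (horizontal) against Myh11 plus Acta2 transcripts (vertical) in each of the 95 mural cells, 1 added to each count, log axes, circles for ND and triangles for HFD. Most cells lie in the upper left with 0 Rgs5 transcripts, and the 6 cells with both Kcnj8 and Abcc9 (ringed) all belong to the 8 cells chosen through Rgs5 alone.

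The pair of channel genes that marks pericytes was found in few of the cells. Other genes of the pericyte list ranged from Rgs4, in 23 of 34 ND and 46 of 61 HFD cells, to rarer ones. Higd1b was seen in 11 and 26 cells and Vtn in 4 and 7. Kcnj8 (chr6:142564837-142571614, GRCm38), which encodes the pore of the channel, was seen in 3 of 34 ND and 5 of 61 HFD mural cells. Abcc9 (chr6:142587862-142702766), which encodes its regulatory subunit, was seen in 2 of 34 and 7 of 61. B cells, which should lack both, had a Kcnj8 transcript in 0.136% and 0.142% of cells and an Abcc9 transcript in 0 of 1474 and 0 of 1408, at a median depth of 3987.5 and 3936 UMIs. Both genes together were found in 6 of 95 mural cells (6.32%, 2.35 to 13.2), namely 6 of the 8 Rgs5-only cells, 0 of 63 with the contractile term only, and 0 of 24 with both terms. Cells with both channel genes were thus a minority of the 95.

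Before any comparison, 5 cells stood apart. In 4 ND cells and 1 HFD cell, S100a8 and S100a9, the alarmin genes that dominate neutrophil RNA, reached 2720 to 5692 and 10213 transcripts, against 1 to 10 in the other 30 ND and 2 to 15 in the other 60 HFD cells. All 5 also carried Ptprc, the pan-leukocyte gene CD45, which only 1 of the other 30 ND and 1 of the other 60 HFD cells did. With 17436 to 49213 UMIs in ND and 35767 in HFD, they were among the deepest members. They held 31.5% of all ND but 6.54% of all HFD mural UMIs. The summed level of the 10 neutrophil markers was 53400 (ND) and 24752 (HFD) UMIs per 1000000 UMIs over all members and 777 and 1054 without the 5 cells. All 5 lay in the top 5% of the doublet scores of their library. Levels below are UMIs per 1000000 UMIs without these 5 cells, unless all members are named, and diet counts and list medians are given both ways.

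**Figure D2:**
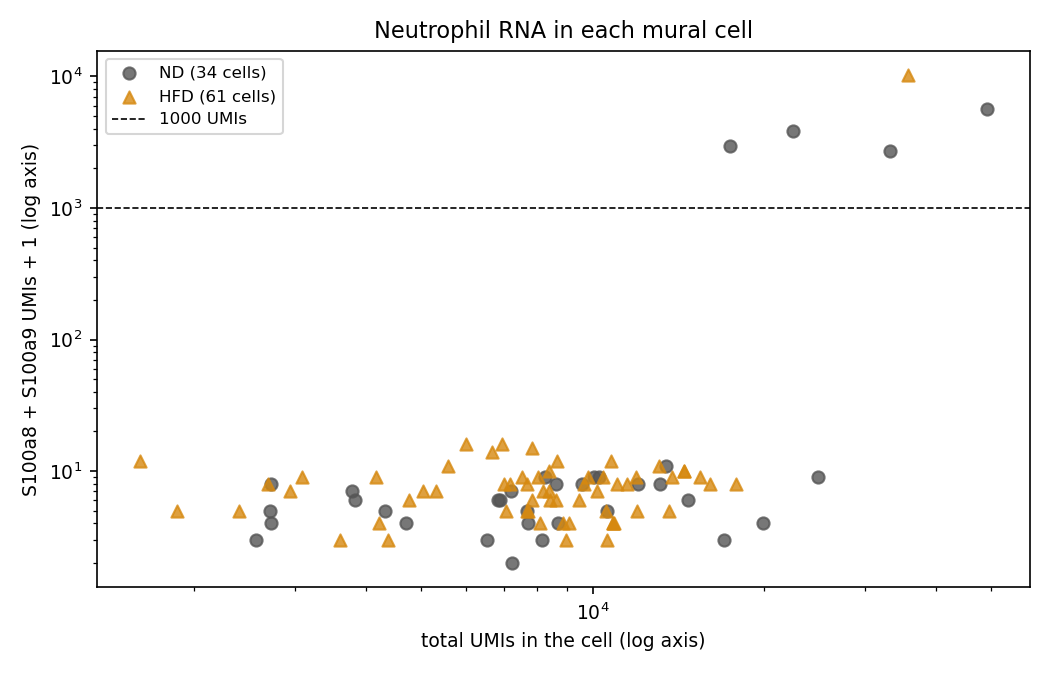
Total UMIs (horizontal) and S100a8 plus S100a9 UMIs with 1 added (vertical) in each mural cell, log axes, grey circles for the 34 ND and orange triangles for the 61 HFD cells. The 4 ND cells and 1 HFD cell above the dashed line at 1000 UMIs hold 2720 or more such UMIs, while all other cells hold 15 or fewer.

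The remaining 90 cells carried little RNA of endothelial cells, fibroblasts and osteoblasts, while single cells among them held leukocyte RNA. For endothelial and osteoblast RNA this follows in part from the rule, which barred Cdh5 and limited Bglap, Bglap2 and Ibsp. Of the 12 endothelial markers, 9 were at 0 in ND and 7 in HFD, Pecam1 among them in both, and of their 32 and 66 UMIs 30 and 60 came from Esam, an adhesion gene. The 10 fibroblast markers summed to 219 and 421 UMIs, of which 150 and 316 were from the actin-severing gelsolin gene Gsn, which smooth muscle also expresses. Dcn, the decorin gene, had 4 ND and 14 HFD UMIs in mural cells, and its level in fibroblasts was 17934 and 20076. The 9 osteoblast markers had 3 and 7 UMIs. Monocyte and macrophage markers had 298 and 27 UMIs, of which Lyz2, the lysozyme gene, gave 206 and 21, and 199 of the 206 were in 1 ND cell. B cell markers had 473 and 687 UMIs, led by Ebf1 (190 and 306), a transcription factor that pericytes also express. Of the B cell genes Igkc and Cd79a, an ND cell held 88 and 21 UMIs and an HFD cell 52 and 34. The part of such RNA in the results below was not tested.

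Of the 20 genes with the highest ratio of mural cells over all other kept cells, 9 belonged to the contractile list, 2 to the pericyte list and 2, Myh11 and Acta2, to the choosing rule. This ratio describes how the cells were chosen and is no test. Ranked over all members by the lower of the ratios in the 2 libraries, they ran from 1218-fold (Map3k7cl) to 251-fold (Dgkb). They included the sarcoplasmic calcium pump regulator Pln, the actin nucleator Lmod1, calponin Cnn1, transgelin Tagln, the myosin light chain Myl9, the actin-binding genes Pdlim3 and Synpo2, the cGMP kinase substrate Mrvi1 and the G protein brake Rgs4. The olfactory receptor gene Olfr558 was also in this group, with 66 ND and 180 HFD UMIs in 23 of 34 and 48 of 61 cells.

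Tagln (chr9:45929628-45936058), an actin-binding protein of smooth muscle, ranged from 0 to 542 UMIs per cell in ND with a median of 112 and from 0 to 636 in HFD with a median of 107 over all members. The cells of the diets overlapped over almost this whole range. Its level was 15441 (14973 to 15920) in ND and 14851 (14519 to 15189) in HFD, against 165 and 369 in endothelial cells, 4.81 and 17.7 in fibroblasts and 1.80 and 5.12 in B cells. Myl9 was at 6281 and 7150, with 4.13 and 120 in endothelial cells. Pln (chr10:53337686-53345999) was at 492 (411 to 583) and 590 (526 to 661), and fibroblasts of both libraries held 0 UMIs of it. Every other measured member of the list of 30 contractile genes pointed the same way.

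Against endothelial cells, 29 of 29 measured contractile genes were at least 2-fold higher in mural cells, with a median log2 ratio of 5.04, where 12.4% of 5715 genes were at least 2-fold higher and 22.2% at least 2-fold lower. Against fibroblasts, all 29 were again at least 2-fold higher, with a median of 6.03, where 10.6% of 10014 genes were higher and 22.8% lower by that fold. A gene was measured with at least 50 UMIs over the cells compared. Most of the cells were chosen by 2 contractile genes, and many of the list passed this minimum through the mural cells (12 of 30 were at 0 in ND endothelial cells), so that these counts describe the chosen cells and support nothing further. Of the wider pericyte list (20 genes, among them Kcnj8, Abcc9, Cspg4, Higd1b, Gucy1a1, Rgs4 and the transcription factor gene Ebf1), 15 of 17 were higher than in endothelial cells and 15 of 19 higher than in fibroblasts, with medians of 5.33 and 4.04. Some of these also passed the minimum through the mural cells (11 of 20 were at 0 in ND endothelial cells). Their counts and medians likewise describe the chosen cells and support nothing further. In the other direction, all 12 endothelial markers and all 10 fibroblast markers were lower in mural than in the named cells, partly by choice of the cells, with medians of −9.05 and −7.56.

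The promoters of the contractile genes were searched for the CArG box, the site bound by serum response factor, which with myocardin drives smooth muscle genes. In RefSeq promoters of GRCm38.p6, spanning 250 bases before to 50 after the start, 26 of the 30 contractile genes were matched with 31 promoters, of which 4 (12.9%) held a CArG box, against 535 of all 32851 promoters (1.63%). The box is its own reverse complement, so that 1 strand covers both. A near-match with 1 G or C in the A/T core was in 5 of the 31 (16.1%) and in 9.98% of all promoters. None of the 16 promoters of the pericyte list and none of 23 of oxidative phosphorylation genes held a box, while 5 of 31 promoters of early-response genes did, all of 2 genes. Shown are the 4 genes of the contractile list with a box, and the smooth muscle actin gene Acta2, a gene of the choosing rule, which held near-matches only. Capitals mark the box or near-match, and positions count from the transcription start. Acta2 (chr19:34255378-34255477, minus strand) has near-matches starting at −84 and −34. The myosin light chain gene Myl9 (chr2:156775283-156775394, plus) has a box at −161 and a near-match at −99. Filip1l (chr16:57549160-57549209, plus) has a box at −62, the vinculin gene Vcl (chr14:20929151-20929200, plus) at −227 and the myosin light chain gene Myl6 (chr10:128493030-128493079, minus) at −50. These matches describe letters, not bound sites.
Acta2: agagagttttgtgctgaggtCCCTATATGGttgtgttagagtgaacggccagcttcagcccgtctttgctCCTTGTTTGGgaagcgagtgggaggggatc
Myl9: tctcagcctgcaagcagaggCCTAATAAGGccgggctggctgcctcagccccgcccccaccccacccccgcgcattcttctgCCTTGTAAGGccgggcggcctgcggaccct
Filip1l: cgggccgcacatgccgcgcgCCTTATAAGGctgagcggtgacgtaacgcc
Vcl: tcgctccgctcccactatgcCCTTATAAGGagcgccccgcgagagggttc
Myl6: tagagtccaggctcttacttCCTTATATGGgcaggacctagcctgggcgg

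Among measured genes through which vessels narrow or widen, most were higher in mural cells than in endothelial cells or fibroblasts. Of 47 listed vessel tone receptors, enzymes and channels, 25 were measured against endothelial cells. Of these, 15 were at least 2-fold higher and 5 lower (median 2.88), where 12.4% of all genes were higher and 22.2% lower. Against fibroblasts 30 were measured, of which 21 were higher and 4 lower (median 3.16), beside 10.6% and 22.8% of all genes. Some passed the minimum through the mural cells (24 of 47 were at 0 in ND endothelial cells). These counts therefore describe the chosen cells and support nothing further. Gucy1a1, a subunit of the nitric oxide receptor guanylate cyclase, was at 904 (794 to 1026) in ND and 909 (828 to 996) in HFD mural cells, with 8.26 and 50.8 in endothelial cells and 9.62 and 8.86 in fibroblasts. Its partner subunit Gucy1b1 was at 244 and 258. The cGMP and cAMP phosphodiesterase genes Pde5a and Pde3a stood at 221 and 235, and at 439 and 350. Ednra, the endothelin A receptor of muscle, was at 97.6 (63.7 to 143) and 160 (128 to 199), with 0 and 1.06 in endothelial cells. Ednrb, the endothelial type of that receptor, was on the contrary lower in mural (26.3 and 45.0) than in endothelial cells (101 and 86.8). Kcnmb1, the smooth muscle subunit of the large calcium-activated potassium channel, was at 71.3 and 82.1 and at 0 in endothelial cells and fibroblasts of both libraries. The purine receptor gene P2rx1 was at 78.8 and 95.8.

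Receptors and ligands of nerves were of interest because the study concerned the innervation of the periosteum. Npy1r, the receptor for neuropeptide Y of sympathetic nerves, was at 338 (272 to 415) in ND and 325 (277 to 378) in HFD mural cells, against 0 and 5.29 in endothelial cells and 9.90 and 6.36 in fibroblasts. Ramp1, a partner of the receptor for the sensory neuropeptide CGRP, was at 308 and 264, with 16.5 and 28.6 in endothelial cells, while its receptor gene Calcrl was at 56.3 and 58.7, below the endothelial 112 and 160. Ntrk2, the receptor of brain-derived neurotrophic factor, was at 176 and 188, with 0 and 3.18 in endothelial cells. Mural cells also carried ligands that act on nerves. Ntn4, encoding netrin 4, was at 270 and 233, with 16.5 and 14.8 in endothelial cells, and Ntf3, encoding neurotrophin 3, at 75.1 and 78.2, with 37.2 and 30.7. Of 14 nerve ligand receptors measured against endothelial cells, 5 were at least 2-fold higher and 9 lower, and of 20 against fibroblasts 6 were higher and 8 lower. The shares over all genes were 12.4% and 22.2%, and 10.6% and 22.8%. This list holds Pdgfrb and Pdgfra, which served to choose the mural cells and the fibroblasts. Of the nerve-directed ligands, 3 were higher and 3 lower of 8 against endothelial cells, and 5 higher and 7 lower of 15 against fibroblasts.

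Signals between mural and endothelial cells were split between the types. Pdgfa was at 409 and 418 in mural cells, against 45.4 and 42.4 in endothelial cells, whereas Pdgfb, the ligand that endothelium sends to PDGFRB, was at 18.8 and 9.78 in mural and 285 and 231 in endothelial cells. S1pr3, a receptor of sphingosine 1-phosphate, was at 251 and 303, with 0 and 2.12 in endothelial cells. Across the PDGF, angiopoietin and VEGF list, 4 of 15 genes were at least 2-fold higher in mural than in endothelial cells and 11 lower (median −4.07). In the Notch pathway list the split was by member, with 4 of 15 genes at least 2-fold higher than in endothelial cells and 7 lower. For both lists, the shares over all genes were 12.4% higher and 22.2% lower. Heyl, a target of NOTCH3 in smooth muscle, was at 97.6 and 50.8 in mural and 0 and 2.12 in endothelial cells, while its relative Hey1 was at 11.3 and 7.82 in mural and 138 and 80.5 in endothelial cells.

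Basement membrane genes were shared with other cells of the vessel. Sparcl1, a matricellular protein gene, was at 4743 and 4837 in mural, 1694 and 1847 in endothelial cells and 316 and 629 in fibroblasts. Itga7, a laminin receptor chain of muscle, was at 154 and 115, and endothelial cells held 0 UMIs of it. Col4a1, a collagen IV chain, was lower in mural (465 and 473) than in endothelial cells (708 and 791). Of the list, 5 of 19 genes were at least 2-fold higher and 6 lower than in endothelial cells, and 8 higher and 10 lower of 22 than in fibroblasts. Interstitial matrix genes were mostly lower than in fibroblasts, 23 of 30 by at least 2-fold and 3 higher (median −3.29). Over all genes, 12.4% were higher and 22.2% lower than in endothelial cells, and 10.6% and 22.8% than in fibroblasts.

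The blood cell factors named above were lower in mural than in endothelial cells, and stood on either side of fibroblasts. Cxcl12 was at 143 (101 to 196) in ND and 194 (157 to 236) in HFD mural cells, against 1811 and 1796 in endothelial cells and 321 and 458 in fibroblasts. Kitl, encoding stem cell factor, was at 278 and 186, between the 14.4 and 20.4 of fibroblasts and the 560 and 591 of endothelial cells. Of the list of niche factors, chemokines and adhesion genes, 16 of 24 were at least 2-fold lower than in fibroblasts and 5 higher. For this and the next 2 lists, the shares over all genes were 10.6% higher and 22.8% lower against fibroblasts. Against endothelial cells they were 12.4% and 22.2%. Nuclear genes of oxidative phosphorylation stood higher in mural cells, 10 of 30 by at least 2-fold and 0 lower against endothelial cells (median 0.77), and 14 of 30 with 0 lower against fibroblasts (median 0.91). Cox8a, a subunit of cytochrome c oxidase, was at 1662 and 2149, against 574 and 644 in endothelial cells and 699 and 649 in fibroblasts. Interferon response genes were lower than in endothelial cells in 21 of 23 cases by at least 2-fold (median −3.07), such as the antigen presentation gene B2m at 221 and 178 against 1483 and 1622.

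**Figure D3:**
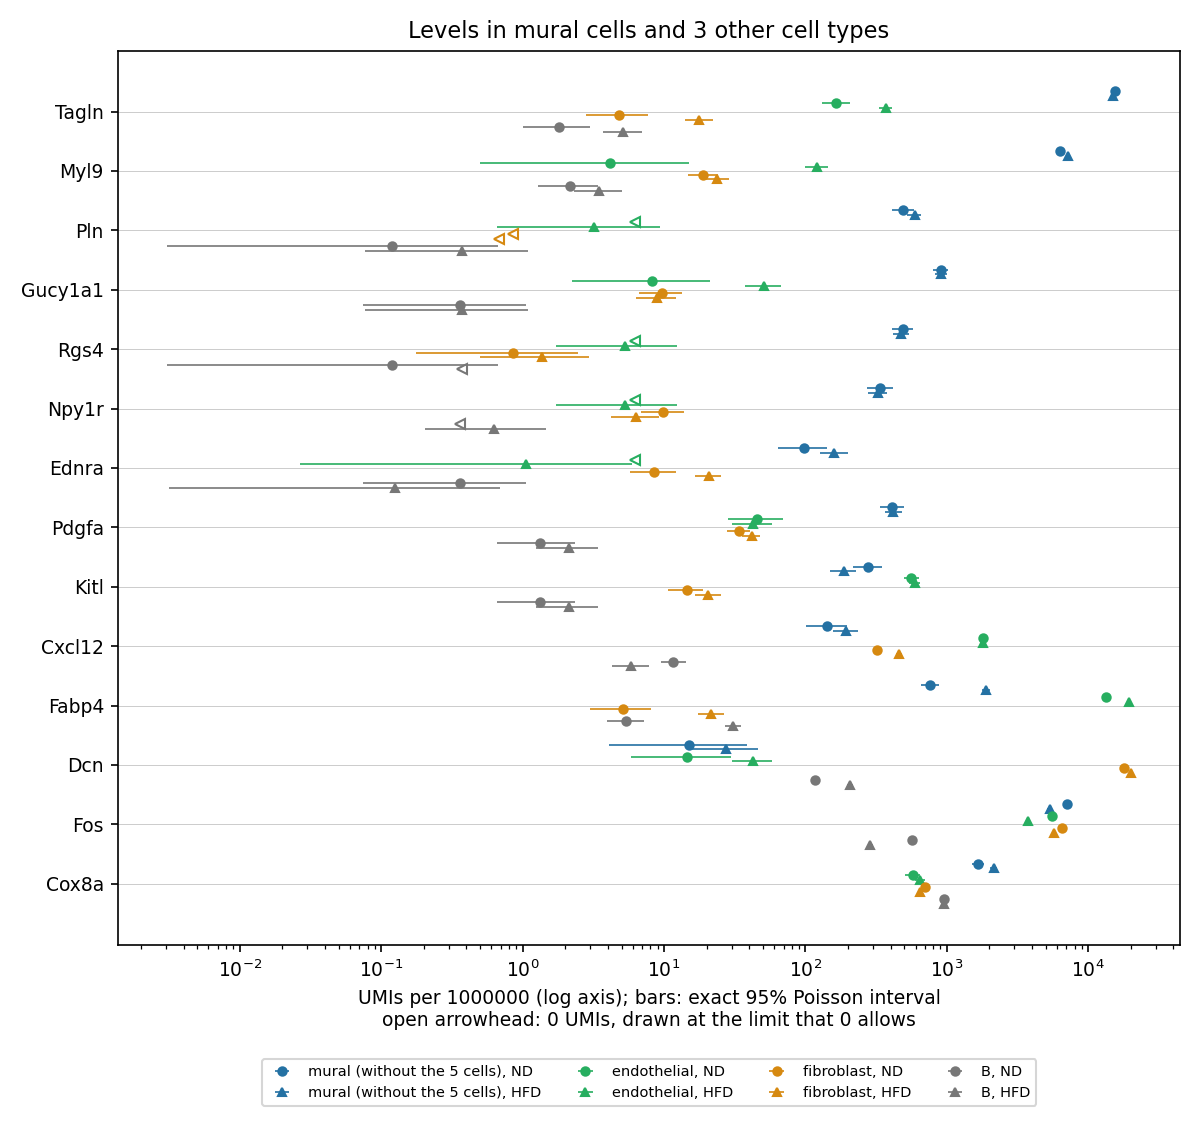
Levels of 14 genes in UMIs per 1000000 UMIs (log axis) in mural cells without the 5 neutrophil-RNA cells (blue), endothelial cells (green), fibroblasts (orange) and B cells (grey), circles ND and triangles HFD, bars exact 95% Poisson intervals, open arrowheads the limit that 0 UMIs allows. Contractile and vessel tone genes from Tagln (15441 and 14851) to Ednra (97.6 and 160) are highest in mural cells, while Cxcl12, Kitl and Fabp4 are highest in endothelial cells and Dcn in fibroblasts.

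The few cells that entered through Rgs5 alone differed from the rest in more than the genes of the rule. Of the 8, 1 ND cell of 49213 UMIs was among the 5 with neutrophil RNA, held 23 transcripts of the fibroblast gene Pdgfra and none of Kcnj8, Abcc9, Vtn, Myh11 or Acta2, so that only its 66 Rgs5 transcripts and 1 of the receptor genes marked it. The other 7 (2 ND and 5 HFD) had 2564 to 8970 UMIs. An ND cell of 3786 UMIs held 66 Rgs5, 18 Kcnj8, 5 Abcc9 and 9 Vtn transcripts, with 1 Myh11 and 2 Acta2. An HFD cell of 5302 UMIs held 116 Rgs5, 18 Kcnj8, 14 Abcc9 and 42 Vtn transcripts, with 1 Myh11 and 27 Acta2. An HFD cell of 8970 UMIs held the most Rgs5 (283) but 2 Kcnj8, 10 Abcc9 and 0 Vtn transcripts. The remaining cells held 5 to 41 Rgs5 transcripts and at least 1 of Kcnj8 each, so that all 7 had Kcnj8 and 6 of 7 Abcc9. All 8 lay in the top 5% of the doublet scores of their library, and the part of doublets in their values was not tested.

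Summed over both libraries, the 7 Rgs5-only cells (32173 UMIs) were set beside the 83 contractile cells (745801 UMIs). As a description, Kcnj8 had 47 and 1 UMIs (1461 and 1.34 per 1000000, log2 ratio 9.52, 7.54 to 15.42) and Abcc9 had 40 and 2 (1243 and 2.68, log2 ratio 8.55, 6.91 to 11.95). The metalloreductase gene Steap4 had 43 and 9 UMIs, a 106-fold difference. Vtn, the vitronectin gene, had 57 and 15, of which 42 were in 1 HFD cell, and 3 of the 7 cells held any. The hypoxia-inducible gene Higd1b was at 932 and 87.2 and the ectoenzyme gene Art3 at 839 and 48.3, which are 10.8- and 17.5-fold. Of the 30 Higd1b UMIs in the 7 cells, 24 were in 1 HFD cell. Mgp, the calcification inhibitor, was 71.4-fold higher (11811 and 165), with 196 of its 380 UMIs in 1 cell. Cxcl12 was 7.43-fold higher (1026 and 139, log2 ratio 2.89, 2.27 to 3.46) in the Rgs5-only cells.

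Contractile genes were lower in these 7 cells, which had by definition missed the Myh11 and Acta2 term that the 83 met, so that this direction follows from the split. Of 29, 23 were at least 2-fold lower and 0 higher (median log2 ratio −2.31), where 19.9% of 2314 genes were lower and 12.4% higher by that fold. Tagln was at 1057 and 15657, which is 14.6-fold lower, Tpm2, encoding beta-tropomyosin, at 497 and 5147, and Myl9 at 2424 and 7043. Pln and Cnn1 had 0 UMIs in the 7 cells and 433 and 219 in the 83, so that the contractile cells stood at least 6.23-fold and 3.15-fold higher, taking 3 counts as the limit. Of the pericyte genes with at least 50 UMIs, 6 of 16 were at least 2-fold higher in the 7 cells and 3 lower (median 0.26), and Kcnj8 and Abcc9, described above, fell short of that minimum with 48 and 42 UMIs in all. Some tone genes were level between the groups. Gucy1a1 was at 901 and 908 and Rgs4 at 466 and 479, and of 19 vessel tone genes with at least 50 UMIs 6 were at least 2-fold lower and 0 higher. Kcnj8 and Abcc9 are also on that list and are not among the 19. Igkc, an antibody light chain gene, had 0 UMIs in the 7 cells and 311 in the 83, of which 27 held any.

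Ranked over the 1170 genes with at least 100 UMIs, the genes highest in the 7 cells after Mgp and Rgs5 were Fam162a (8.86-fold), the globin gene Cygb (8.71-fold), Cxcl12, the heat shock gene Hspa1a, the cytokine gene Il6, the chemokine gene Cxcl1, the matricellular gene Sparc (5.21-fold) and the non-muscle myosin gene Myh9. All 35 Il6 UMIs and 57 of the 72 Hspa1a UMIs came from 1 cell each, while Fam162a, Cygb and Sparc were seen in all 7. Among the lowest were the actin adaptor gene Sorbs2, Rasd1, Pln, Myh11, Nr4a2, Tesc, Igkc, Ptp4a3 and Cnn1, of which Sorbs2 had 0 and 712 UMIs. Over all members, with the ratio nearest to 0 of the 2 libraries as the rank among 1369 genes, the highest were instead S100a10, the mesenchymal factor gene Prrx1, App, S100a13, Rgs5, Mgp, Tcf4, the collagen gene Col1a2, Myadm and Fstl1. The cell of 49213 UMIs supplies most of the ND transcripts in that ranking. The lowest in it were Myh11, Rasd1, Pln, Crispld2, Nr4a2, Cnn1, Ptp4a3, Tagln, Maff and Igkc.

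**Figure D4:**
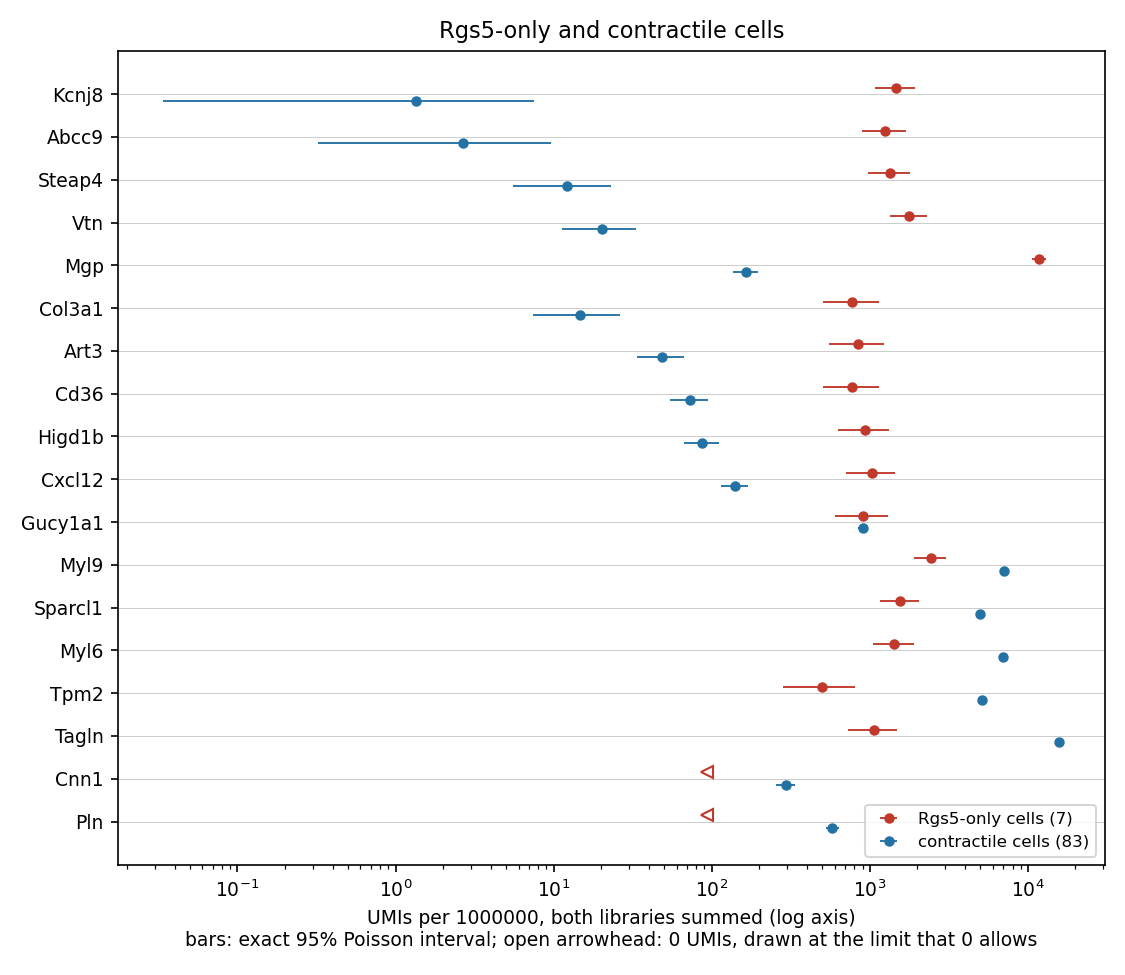
Levels of 18 genes in UMIs per 1000000 UMIs (log axis) in the 7 Rgs5-only cells (red) and the 83 contractile cells (blue), both libraries summed, bars exact 95% Poisson intervals, open arrowheads the limit that 0 UMIs allows. Kcnj8 and Abcc9 lie at 1461 and 1243 in the first and at 1.34 and 2.68 in the second, Gucy1a1 lies at 901 and 908, and Tagln lies 14.6-fold lower in the Rgs5-only cells.

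Among the contractile cells, 23 (6 ND and 17 HFD) held at least 5 Rgs5 transcripts and 60 (22 and 38) did not. Besides Rgs5 and Pdgfrb, the genes that were higher in both libraries included Apold1, an early-response gene, at 1139 and 176 in ND and 121 and 45.7 in HFD. Its ND level of 1139 rested on 50 UMIs in 6 cells, and it was unevenly spread among ND cells, as given below. Maff, a small bZIP factor, was at 501 and 180, and at 356 and 195. The calcium-binding gene S100a4 was at 592 and 264, and at 502 and 299. Lower genes included Cst3, the cystatin C gene, at 1708 and 3237 in ND and 1918 and 3720 in HFD, and Ogn, the osteoglycin gene, at 0 and 87.9, and at 31.8 and 232. Kcnj8 and Abcc9 were in none of the 24 cells with both terms.

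Between diets, 91.2% of ND and 91.8% of HFD cells were taken in by the contractile term, 29.4% (15.1 to 47.5) and 36.1% (24.2 to 49.4) by Rgs5, and 20.6% and 27.9% by both. Over all 95 members, 57 of 2730 genes (2.09%) were at least 2-fold higher in HFD and 121 (4.43%) at least 2-fold lower, and the median log2 value of HFD against ND was 0.06. Much of this lay in the 5 neutrophil-RNA cells. Without them, 30 of 2314 genes (1.3%) were higher and 32 (1.38%) lower, with a median of 0.01. Among the 10 lowest genes over all members were the lubricin gene Prg4 (2327 ND and 12 HFD UMIs), the neutrophil granule genes Elane (690 and 8), Prtn3 (484 and 6) and Mpo (242 and 4), and Fn1 (609 and 24). All 2327 ND transcripts of Prg4 were in 1 of those cells, and without the 5 cells it had 0 and 12 UMIs.

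Without the 5 cells, Fabp4 (chr3:10204342-10208616), a fatty acid carrier of capillary endothelium and fat cells, was among the 10 genes with the highest ratio of HFD over ND. It had 203 ND and 962 HFD UMIs, or 762 (661 to 874) and 1881 (1764 to 2004) per 1000000 (log2 ratio 1.30, 1.08 to 1.53; 1.73 over all members). It was seen in 11 of 30 ND and 35 of 60 HFD cells. In ND, 116 and 42 of its UMIs were in 2 cells, and in HFD the cells with most held 190 and 122. Its level in the same libraries was 13337 and 19332 in endothelial cells and 5.40 and 30.8 in B cells, 1.70% and 7.53% of which held a transcript. Whether endothelial RNA in the droplets bore on the mural value was not tested. Angptl4, an inhibitor of lipoprotein lipase, had 2 and 42 UMIs (7.50 and 82.1, log2 ratio 3.15, 1.51 to 6.54), together below the minimum of 50. It was found in 1 of 30 ND and 18 of 60 HFD cells, against 1.97% and 1.85% of B cells. Across the lipid and insulin list, 4 of 11 genes were higher and 7 lower (median −0.09), where 1179 of 2314 genes were higher and 1135 lower. Over all members 6 of 12 were higher (median 0.09), where 1518 of 2730 genes were.

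Cxcl10, an interferon-induced chemokine (chr5:92346638-92348889), had the highest ratio, with 2 ND and 117 HFD UMIs (7.50 and 229, log2 ratio 4.61, 3.04 to 7.99). Only 6 of 60 HFD cells held it, and 59 and 25 of its UMIs were in 2 cells, against 1 of 30 ND cells and 1.97% and 1.28% of B cells. Of the interferon response list, which does not hold Cxcl10, 2 of 8 genes were higher in HFD and 6 lower (median −0.30, or −0.09 over all members). Over all genes, 1179 of 2314 were higher and 1135 lower. Fbxl22, an F-box gene of muscle, was at 116 and 274 (log2 ratio 1.22, 0.66 to 1.85), Timp4, a metalloproteinase inhibitor gene, at 176 and 397 (1.16), Ogn at 71.3 and 160 (1.14) and Sort1, encoding sortilin, at 82.6 and 164 (0.97, 0.30 to 1.74). The rest of the 10 highest were Zfp703, Park7, Btbd7 and AY036118, with log2 ratios of 0.94, 0.93, 0.88 and 0.87. Over all members these 10 genes were also higher in HFD, with the lowest log2 ratio, 0.49, for Park7.

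Several of the lowest genes rested on 1 ND cell. Lyz2 had 206 and 21 UMIs (log2 ratio −4.20), 199 of the 206 in a cell of 19913 UMIs that also held 72 Cd14 and 190 of the 264 ND transcripts of Tmsb10. Ly6d (77 and 33) and Ighm (71 and 44), both B cell genes, drew 52 and 43 UMIs from an ND cell that also held 88 Igkc. Crispld2 (904 and 452) had 105 of its 241 ND UMIs in 1 cell. Apold1 was spread more widely, at 334 and 84.1 (log2 ratio −1.98, −2.55 to −1.45), in 13 of 30 ND and 18 of 60 HFD cells, and the 2 ND cells with most of it held 24 UMIs each. The inducible heat shock genes Hspa1a (698 and 244, log2 ratio −1.51) and Hspa1b (492 and 180, −1.45) were lower in HFD, and 1 ND cell each held 57 of 186 and 44 of 131 of their ND UMIs. The cytokine gene Il6 was at 311 and 151 (−1.05, or −0.63 over all members). Of its 83 ND UMIs, 43 were in 1 cell, the same that held 105 of Crispld2, and without that cell ND stood at 159. In HFD, 35 of 77 were in 1 cell.

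The gene lists were then set beside the same lists in other cells of the 2 libraries. Contractile genes were higher in HFD in 27 of 29 cases over all members (median log2 ratio 0.35) but in 15 of 29 without the 5 cells, with summed levels of 54971 in ND and 57147 in HFD. Pericyte and vessel tone genes went the same way, with medians of 0.44 and 0.37 over all members and 0.02 in both lists without the 5 cells. Early-response genes, induced within minutes by stress and tissue handling, were lower in HFD in 26 of 29 cases (median −0.45, or −0.17 with 21 of 29 over all members), where 1135 of 2314 genes were lower. Among them Fos was at 7051 and 5343 (log2 ratio −0.40, −0.49 to −0.31, but −0.06 over all members) and Zfp36 at 1561 and 807 (−0.95, −1.15 to −0.75). In settings that keep neutrophil-RNA cells, the list median turned. With only cells of at least 5 Rgs5 transcripts it was 0.39, where all genes were at 0.37. Of the 5 cells, 2 remained there, both ND, and neutrophil markers summed to 97157 in ND and 988 in HFD. With equal weight per selection term, which keeps all 5 cells, the list median was 0.01, where all genes were at 0.11. The same list was lower in 26 of 29 cases in endothelial cells (median −0.55), 29 of 33 in fibroblasts (−0.16) and 29 of 33 in B cells (−0.59), which share the libraries and where all genes had medians of 0.04, 0.05 and 0.03. Hspa1a and Hspa1b were likewise lower in HFD in all 3, for Hspa1a at 2303 and 814, 471 and 189, and 1308 and 459. These 3 types were not cleared of cells rich in neutrophil RNA. Their neutrophil markers summed to 34308 in ND and 27884 in HFD endothelial cells, 27794 and 17697 in fibroblasts and 18017 and 16002 in B cells. In the same order, erythroid markers summed to 240 and 299, 76.6 and 636, and 1903 and 311. The part of this RNA in their values was not tested.

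Oxidative phosphorylation genes were higher in HFD mural cells in 25 of 30 cases (median 0.26, or 0.32 with 28 of 30 over all members), where 1179 of 2314 genes were higher. None passed 2-fold. Their summed level was 16563 in ND and 19540 in HFD, with Cox8a at 1662 and 2149 (log2 ratio 0.37, 0.21 to 0.53), Cox7c at 852 and 1169 (0.45, 0.23 to 0.68), Ndufa2 at 435 and 624 (0.51, 0.21 to 0.84) and, in the other direction, Ndufb9 at 653 and 592 (−0.14, −0.41 to 0.14, but 0.10 over all members). In endothelial cells 22 of 30 were higher (median 0.06), in fibroblasts 9 of 30 (−0.06) and in B cells 24 of 30 (0.07), beside medians over all genes of 0.04, 0.05 and 0.03 in these types. Notch pathway genes were lower in HFD mural cells in 6 of 7 cases (median −0.54, or −0.34 with 6 of 8 over all members). In the settings described above that keep neutrophil-RNA cells, the Notch median turned. It was 0.66 with only cells of at least 5 Rgs5 transcripts, where all genes were at 0.37. It was 0.24 with equal weight per selection term, where all genes were at 0.11. Jag1, the ligand, was at 345 and 184 (−0.91, −1.34 to −0.48), and the targets Hes1 and Heyl were at 841 and 596 (−0.50, −0.75 to −0.24) and 97.6 and 50.8 (−0.94, −1.78 to −0.10), while over all members these 3 were at −0.49, −0.15 and −0.44 on the log2 scale. In the other direction, Nrip2 was at 338 and 442 (0.38, 0.03 to 0.76). The Notch list had a median of −0.47 in endothelial cells, 0.28 in fibroblasts and 0.11 in B cells. Glycolysis and hypoxia genes were lower in 9 of 10 cases with a median of −0.21 (−0.32 over all members). The medians were −0.22 in endothelial cells, −0.11 in fibroblasts and −0.03 in B cells. Basement membrane and interstitial matrix genes had medians of −0.10 and −0.03, and of 0.12 and −0.22 over all members.

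**Figure D5:**
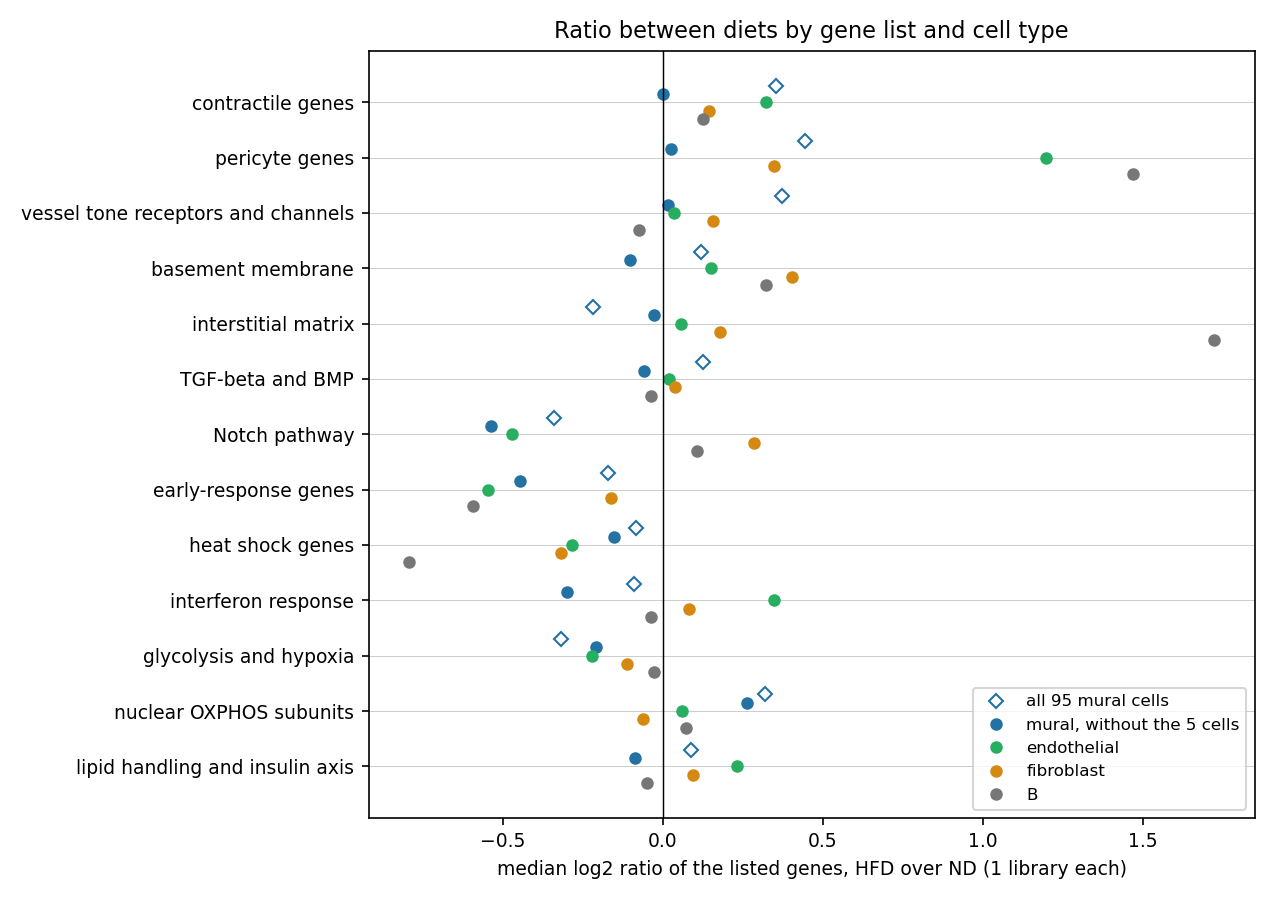
Median log2 ratio of HFD over ND for 13 gene lists (rows) in all 95 mural cells (open diamonds), mural cells without the 5 neutrophil-RNA cells (blue), endothelial cells (green), fibroblasts (orange) and B cells (grey), 1 library per diet. Contractile genes move from 0.35 to near 0 once the 5 cells are left out, oxidative phosphorylation genes stay at 0.26 or above in mural cells, and early-response genes lie below 0 in all cell types.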

How the data were processed

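Periosteal cells were sequenced as 1 pooled library per diet. The authors deposited raw UMI counts per gene and barcode (32285 genes), made, per the labels, with Cell Ranger 6.0.1 on mm10; the values were not normalized. Barcodes carry no mouse.

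Cells were kept and chosen as stated above. The members and all 34 gene lists were chosen with earlier results of these data known. Counts were summed per library and cell type, scaled to 1000000 UMIs, and ratios taken after adding 0.5 to each count, for genes with at least 50 UMIs over both groups. Intervals were exact Clopper-Pearson, Poisson or conditional binomial (95%), and a count of 0 was taken to allow 3. With 34 and 61 cells, depth limits genes of low level. Beyond list members, genes were named by rule: the 10 highest and 10 lowest ratios between diets, or between selection terms, and the 20 highest over all other cells, among genes with at least 100 UMIs. Selection terms were ranked by the ratio nearest to 0 of the 2 libraries over all members and, as an addition made after the cells were seen, on summed libraries without the 5 neutrophil-RNA cells. The ranking within contractile cells and leaving out those 5 cells were also chosen after the data were seen. Symbols listed more than once (38, among them Aldoa and Ccl19) and Cyr61 and Ctgf, not under these names in the matrices, were left out. Some genes that these rules pick are not reported here. Scrublet called 9 ND and 23 HFD kept cells doublets (0.149% and 0.370%), 0 of them mural, too few to have worked, so the top 5% of scores served as an alternative. Other alternatives were stricter and looser thresholds, other minimums, thinning to 2000 UMIs per cell, equal weights per cell or selection term, other scalings, and leaving out cells with leukocyte RNA. Ratios and intervals were tested on simulated data. Scripts used scanpy 1.11.5, anndata 0.12.19, scipy 1.17.1, numpy 2.4.6, matplotlib 3.10.9 and pandas 2.3.3 under Python 3.11.15.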

Additional observations from a re-analysis of the deposited data

How the results depend on the processing

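Of the values that answer a comparison, 39 stayed within their limits under the alternatives and 17 moved. The 57 genes at least 2-fold higher in HFD became 104 with only cells of at least 5 Rgs5 transcripts, 24 with cells free of leukocyte and hemoglobin RNA, 30 without the 5 neutrophil-RNA cells, 24 without the top 5% of doublet scores, 245 and 6 with minimums of 20 and 200 UMIs, 9 at 2000 UMIs per cell, and 167 with equal weight per selection term. The 121 lower genes became 102, 29, 32, 32, 367, 32, 16 and 201 in the same order. The minimums and thinning change how many genes are measured; the cause of the other shifts was not tested. Without the top 5% of doublet scores, no Rgs5-only cell was left, and 100% of members in both libraries entered through the contractile term. The median ratio between diets of the neutrophil markers turned from −2.66 to 0.41, 0.48 and 0.56 in cells free of leukocyte RNA, without the 5 cells and without the top scores. Against fibroblasts, erythroid markers turned to 0.89 in ND alone. For Rgs5-only over contractile cells, interstitial matrix turned to −0.65 in ND alone and neutrophil markers to −4.63 in HFD alone. The early-response and Notch lists, at −0.17 and −0.34 over all members, were at 0.39 and 0.66 with only cells of at least 5 Rgs5 transcripts, where the median of all genes was 0.37, and at 0.01 and 0.24 with equal weight per selection term, where it was 0.11. Equal weight per selection term keeps all 5 neutrophil-RNA cells. The setting with at least 5 Rgs5 transcripts keeps only 2 of them, both among its 10 ND cells. For neither setting was a value without the neutrophil-RNA cells computed. Oxidative phosphorylation genes lay between 0.23 and 0.60 under the alternatives run, the highest where all genes were at 0.37. Contractile genes were at least 2-fold higher than in endothelial cells and fibroblasts in 29 of 29 cases with and without the 5 cells. Leaving out the 5 cells and the top scores was chosen after seeing the data. No paired analysis was possible because barcodes carry no mouse, and leaving out a mouse was not possible for the same reason. Only 34 and 61 cells stand behind the diet values.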

Other observations

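Some genes of the TGF-beta and BMP pathway were higher in mural than in endothelial cells and others lower. In mural cells without the 5 neutrophil-RNA cells, Bmp2 was at 154 (110 to 209) in ND and 158 (126 to 197) in HFD, against 12.4 and 13.8 in endothelial cells and 65.9 and 68.1 in fibroblasts. Tgfb3 was at 154 and 108, with 4.13 and 12.7 in endothelial cells. Id3, a target of BMP signaling, was at 2469 and 2614, beside 1995 and 2028 in endothelial cells, while Id1 was lower in mural (537 and 454) than in endothelial cells (1576 and 1358). Over the list, 5 of 20 genes were at least 2-fold higher and 6 lower than in endothelial cells, where 12.4% of all genes were higher and 22.2% lower. Among genes of insulin action, Slc2a4, the insulin-regulated glucose transporter GLUT4, was at 67.5 and 72.3 in mural cells and at 0 in endothelial cells of both libraries, and Irs2 was at 435 and 411, with 20.7 and 21.2 in endothelial cells.

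The selection rule left some cells with mural genes aside. There were 12 cells (3 ND and 9 HFD) that met an Rgs5 or contractile term but failed another, and 10 of them (2 and 8) held Cdh5. An HFD cell of 11571 UMIs held 197 Rgs5, 14 Kcnj8, 12 Abcc9 and 13 Vtn transcripts together with 8 Cdh5 and 10 Pecam1. Both Kcnj8 and Abcc9 were found in 9 cells outside the mural set (1 ND and 8 HFD), 7 of which held over 100 Dcn transcripts. Among fibroblast progenitor genes, Prrx1 was at 109 and 127 in mural cells, against 420 and 491 in fibroblasts, and the intermediate filament gene Nes at 45.0 and 74.3, against 101 and 138 in endothelial cells. The 22 listed cell cycle genes had a summed level of 1042 in ND and 1522 in HFD over all members and of 822 and 800 without the 5 neutrophil-RNA cells, against 5569 and 6120 in B cells.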
